A study of Mus musculus with 10 samples.

Results

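The genes described here are 8 markers of Schwann cells and of the myelin they make: Sox10, Ngfr, S100b, Ncam1, Mbp, Pmp22, Prx and Mag. They were taken by symbol from count tables of mouse aorta that list 35667 genes, and each symbol matched 1 row. All 8 passed the filter on low counts, so all were tested. RNA-seq was run on 10 aorta libraries from C57BL/6 mice aged 12 weeks. There were 5 libraries labelled as a knockout (KO) of Ovgp1, an oviductal glycoprotein, and 5 labelled wild type (WT), with no treatment named for either group. The series title ties Ovgp1 to hypertension and vascular remodelling, so the comparison asks how the aortic transcriptome differs between these genotypes. The labels do not say how the allele was made or whether animals were pooled, nor do they tie each library to an animal of its own. The p-values below therefore measure only the spread between these libraries.

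Schwann cells are the glia of peripheral nerves. They wrap large axons in myelin and hold bundles of small axons without it, and the sympathetic fibres of the aortic adventitia are of the second, non-myelinated kind. SOX10 is the transcription factor that sets glial identity from the neural crest onward, and together with EGR2 it drives the genes of the myelin sheath. NGFR (the low-affinity neurotrophin receptor p75), NCAM1 and S100B are carried by Schwann cells that do not myelinate or by Schwann cells in general. MBP, PMP22, MAG and PRX belong to the sheath and its membranes. Several of these genes are also used outside glia: S100b in fat cells, Ncam1 in muscle, Pmp22 in many connective tissue cells, Ngfr in sympathetic neurons, and the longer Golli transcripts of the Mbp locus in immune cells.

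Facts of the whole series bear on every value below. Total counts ran from 24434745 to 26694590 in the KO libraries and from 21242030 to 24396394 in the WT libraries. Ovgp1 itself, the targeted gene, went against its label: it stood between 17.8 and 21.9 CPM (counts scaled to a common library size, after TMM) in the KO libraries and between 1.98 and 4.69 CPM in the WT libraries, and the genotype field names Ovgp1 for 1 of the 5 KO libraries and Ovgp2 to Ovgp5 for the others. "KO" below therefore means the libraries labelled KO. The 5 KO libraries were also far more alike than the 5 WT libraries. Over 12509 well-counted genes, pairs of KO libraries gave a chi-square of 1.77 to 3.25 per degree of freedom and pairs of WT libraries 11.03 to 154, where sampling noise alone gives about 1. For this reason the differences of the 8 genes are given with the 5 KO libraries as replicates and again with their counts summed into 1 sample against the 5 WT libraries, and lists with the number called in each fit. The share of counts from mitochondrial genes was 7.61% to 7.88% in KO, and 16.2%, 6.75%, 13.2%, 8.92% and 9.59% in WT replicates 1 to 5.

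RefSeq promoter windows on GRCm38.p6, covering the 250 bases before an annotated start, were found for 5 of the 8 genes (Pmp22, Mag, Prx, S100b and Ngfr). The windows of Ngfr, which differed most between the groups, of S100b, which differed least, and of Mag are shown, the last because it alone held a match to a motif searched. They lie at chr11:95587699-95587948 on the minus strand for Ngfr, at chr10:76253586-76253835 on the plus strand for S100b and at chr7:30914864-30915113 on the minus strand for Mag. Each is read 5′ to 3′ toward its gene, in lower case, and capitals mark a motif match.
Ngfr: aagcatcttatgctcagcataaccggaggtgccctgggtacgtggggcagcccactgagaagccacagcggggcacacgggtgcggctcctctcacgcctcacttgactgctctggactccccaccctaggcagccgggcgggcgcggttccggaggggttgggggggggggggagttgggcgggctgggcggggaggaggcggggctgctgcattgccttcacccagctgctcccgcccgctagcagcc
S100b: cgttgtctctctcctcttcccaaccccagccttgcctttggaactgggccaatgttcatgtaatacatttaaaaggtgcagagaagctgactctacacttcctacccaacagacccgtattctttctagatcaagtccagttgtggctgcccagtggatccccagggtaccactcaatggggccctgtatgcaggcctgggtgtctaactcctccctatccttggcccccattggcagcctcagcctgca
Mag: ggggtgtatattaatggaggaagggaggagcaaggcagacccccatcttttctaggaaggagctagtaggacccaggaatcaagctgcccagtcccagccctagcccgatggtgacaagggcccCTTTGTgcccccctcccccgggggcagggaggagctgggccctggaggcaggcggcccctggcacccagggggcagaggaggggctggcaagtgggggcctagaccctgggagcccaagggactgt
Both strands were searched for the SOX motifs ACAAAG and ACAATG and the EGR motif GCGNGGGCG, and no window held more than 1 match. ACAAAG occurs in 16.5% of 32851 RefSeq windows of this length, ACAATG in 10.7% and GCGNGGGCG in 4.70%. These shares are per window, and Pmp22 and Mag each had more than 1 window searched. Of the 5 genes, Mag held a match to ACAAAG, read in the window above as its reverse complement CTTTGT at -126 from the start. The same bases lie at -67 in the overlapping window of a nearby second Mag start, so this is 1 site. The window of a further Mag start held no match. The windows of the other 4 genes did not hold these letters, which says nothing of the factors themselves.

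Across the 8 genes, Mbp and Ngfr rose in the KO libraries in edgeR's quasi-likelihood test with Benjamini-Hochberg adjustment over all 15710 genes tested, and no member fell. All 5 KO libraries stood above all 5 WT libraries for 3 of the 8, Mbp, Ngfr and Sox10, against 7.38% of all tested genes, and below them for 0 of the 8, against 7.22%. The calls are 2 of 8 called higher, against 6.84% of all tested genes called higher and 7.43% called lower. Of the 2, Ngfr passed the low-count filter through its KO libraries, and the 8 genes were chosen with earlier results of these data known. The share called higher rests on 1075 genes, and on leaving out any 1 KO library 656 to 706 genes were called higher. At an unadjusted p under 0.05, 3 of the 8 were higher and 0 lower, against 13.2% and 16.2% of all tested genes. The median log2 difference of the 8 was 0.25, with 6 positive, against a median of -0.02 over all tested genes, of which 45.8% were positive. With KO as 1 sample, 0 of the 8 were called, against 0.0446% of all tested genes called in either direction. In that fit 2 of the 8 were higher at an unadjusted p under 0.05, against 2.36% of all tested genes, and 0 were lower, against 1.36%.

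**Figure D1:**
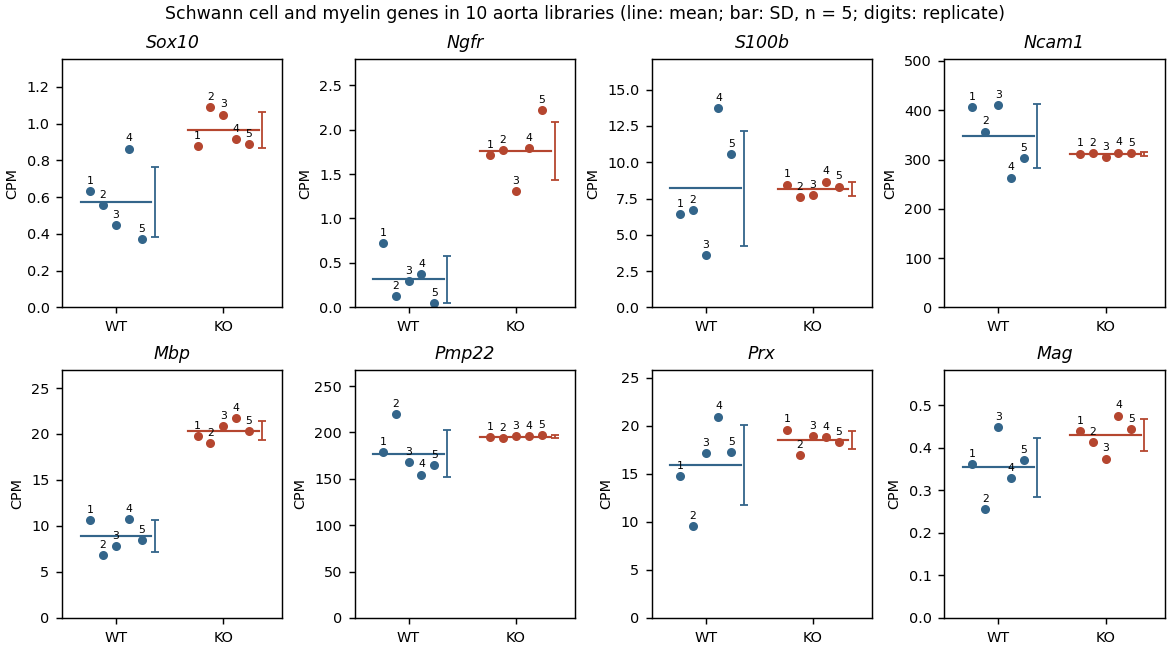
CPM of the 8 genes (vertical axis, linear, from 0) in each of the 5 WT (blue) and 5 KO (red) libraries. Lines are means, bars are SD (n = 5) and digits are replicate numbers. The groups do not overlap for Sox10, Ngfr and Mbp, and the SD is larger in WT than in KO in every panel but that of Ngfr.

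Sox10 (ENSMUSG00000033006, GRCm38 chromosome 15, 79154908 to 79165240) gives the most direct measure of glial identity and was weakly expressed. KO replicates 1 to 5 had 0.878, 1.09, 1.05, 0.914 and 0.888 CPM, from 22 to 29 counts each. WT replicates 1 to 5 had 0.634, 0.556, 0.449, 0.865 and 0.371 CPM, from 8 to 21 counts. Every KO library stood above every WT library, although WT replicate 4 almost reached the lowest KO library. The mean was 0.964 ± 0.0986 CPM in KO and 0.575 ± 0.190 CPM in WT (SD, n = 5 each). The log2 difference of 0.73 (SE 0.24), a 1.66-fold ratio with a 95% interval of 1.16 to 2.37, missed the threshold at an adjusted p of 0.0612 in edgeR. Without WT replicate 4 it passed, at a log2 difference of 0.93 and an adjusted p of 0.0214, and over the 18 alternatives that keep KO libraries as replicates the adjusted p ran from 0.00285 to 0.144. An exact two-sided permutation test gave p = 0.00794, the smallest possible with 5 libraries against 5. The interval was 0.788 to 3.51 with KO as 1 sample.

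Ngfr (ENSMUSG00000000120, chromosome 11, 95568818 to 95587735) lay furthest from equal levels among the 8 genes, in either direction. Its product binds all neurotrophins and is high on immature, non-myelinating and injured Schwann cells. KO replicates had 1.72, 1.77, 1.31, 1.79 and 2.22 CPM (35 to 60 counts), and WT replicates had 0.725, 0.128, 0.299, 0.371 and 0.0464 CPM. Every KO library was above every WT library, and the WT libraries were themselves far apart, with 16, 3, 6, 9 and 1 counts. Ngfr passed the low-count filter through its KO libraries: 5 KO libraries but 1 WT library exceeded the filter's CPM level of 0.410. The fold was 5.53 (95% interval 2.94 to 10.4), from 1.76 ± 0.322 CPM in KO and 0.314 ± 0.264 CPM in WT (SD, n = 5 each), with an adjusted p of 0.0033 in edgeR and an exact permutation p of 0.00794. With KO as 1 sample the fold was 5.56 (1.64 to 18.9), with an unadjusted p of 0.0124 and an adjusted p of 0.999 in edgeR. The log2 difference of 2.47 became 4.06 with voom and 3.22 without WT replicates 1 and 3, over 1.5 times the fold in each case. The adjusted p ran from 1.32e-07 to 0.0224 over the 18 alternatives with KO libraries as replicates, and from 0.835 to 1.00 with KO as 1 sample.

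S100b (ENSMUSG00000033208, chromosome 10, 76253853 to 76261159) encodes a calcium-binding protein widely used to stain Schwann cells. Its KO values were 8.46, 7.59, 7.72, 8.66 and 8.32 CPM, and its WT values 6.43, 6.71, 3.59, 13.8 and 10.6 CPM. All KO libraries fell inside the WT range: WT replicates 4 and 5 lay above every KO library, and WT replicates 1, 2 and 3 lay below every one. The means were 8.15 ± 0.470 CPM in KO and 8.22 ± 3.97 CPM in WT (SD, n = 5 each), a fold of 0.989 whose 95% interval, 0.645 to 1.52, takes in changes of either sign (adjusted p = 0.977 in edgeR). The interval was 0.366 to 2.67 with KO as 1 sample. The sign of this near-zero difference depended on which libraries were used. Leaving out WT replicate 4 gave a log2 difference of 0.25, leaving out WT replicate 5 gave 0.090, and leaving out both gave 0.54, with adjusted p of 0.0616 in edgeR. S100b overlaps Dip2a on the opposite strand (7288 counts for Dip2a over the 10 libraries). Reads from their overlap cannot be told apart unless strand was used in counting, which no source used here states.

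Ncam1 (ENSMUSG00000039542, chromosome 9, 49502136 to 49798925) encodes a cell adhesion molecule of neurons, muscle and non-myelinating Schwann cells. It had by far the largest CPM of the 4 identity genes. KO replicates had 312, 313, 305, 314 and 313 CPM and WT replicates had 407, 356, 410.3, 263 and 303 CPM. WT replicates 4 and 5 were below every KO library and WT replicates 1, 2 and 3 above every one, the reverse of S100b. The means of 311 ± 3.56 CPM in KO and 348 ± 64.4 CPM in WT (SD, n = 5 each) gave a log2 difference of -0.16 (SE 0.11, adjusted p = 0.356 in edgeR), and the fold's 95% interval with KO as 1 sample was 0.593 to 1.35. Without WT replicates 4 and 5 the difference was -0.33 with an adjusted p of 0.00313, and without WT replicates 1 and 3 it was 0.031, so neither its call nor its sign held across these choices.

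Mbp (ENSMUSG00000041607, chromosome 18, 82475146 to 82585637) encodes myelin basic protein, which holds the cytoplasmic faces of the sheath together. It gave the smallest adjusted p of the 8 genes. KO replicates had 19.8, 19.0, 20.9, 21.8 and 20.3 CPM (496 to 595 counts) and WT replicates had 10.6, 6.84, 7.78, 10.7 and 8.50 CPM (156 to 260 counts). The lowest KO library, replicate 2, stood well above the highest WT library, replicate 4. Mbp rose 2.29-fold (95% interval 1.91 to 2.73), from 8.89 ± 1.73 CPM in WT to 20.3 ± 1.05 CPM in KO (SD, n = 5 each), with an adjusted p of 0.000156 in edgeR and an exact permutation p of 0.00794. With KO as 1 sample the fold was again 2.29, with an interval of 1.53 to 3.41 that excludes 1 and an unadjusted p of 0.00165, but an adjusted p of 0.617 in edgeR. Over the 18 alternatives with KO libraries as replicates the log2 difference ran from 1.122 to 1.28 and the adjusted p reached at most 0.00238. It ran from 0.617 to 1.00 with KO as 1 sample, with or without each WT library. The counts are per gene, so classic Mbp and Golli transcripts are not separated. Mbp also overlaps the pseudogene Rpl21-ps8 on the opposite strand (1451 counts over the 10 libraries), with the same limit on strand as given for S100b.

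Pmp22 (ENSMUSG00000018217, chromosome 11, 63128982 to 63159547) encodes a membrane protein of compact myelin that is also made outside nerve. It stood at 194.6, 193.8, 196.0, 196.3 and 197.0 CPM in KO and at 179, 219.7, 168, 154.6 and 164.8 CPM in WT. WT replicate 2 was above all KO libraries and the other 4 WT libraries were below all of them. The log2 difference was 0.14 (SE 0.08, fold 1.10, 95% interval 0.975 to 1.25, adjusted p = 0.277 in edgeR), with an interval of 0.809 to 1.504 when KO was 1 sample. It passed the threshold without WT replicate 2, at 0.24 with an adjusted p of 0.008, and the adjusted p ran from 0.000234 to 0.705 over the 18 alternatives.

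Prx (ENSMUSG00000053198, chromosome 7, 27499324 to 27520214) encodes periaxin, which links the outer sheath of peripheral myelin to the basal lamina. KO replicates had 19.6, 17.0, 18.9, 18.8 and 18.3 CPM and WT replicates had 14.7, 9.58, 17.2, 20.96 and 17.2 CPM. The groups overlapped, with WT replicate 4 above every KO library and WT replicates 1 and 2 below every one. The log2 difference was 0.22 (SE 0.16, fold 1.16, 95% interval 0.910 to 1.48, adjusted p = 0.407 in edgeR). That interval lies below the one for Mbp, 1.91 to 2.73, but with KO as 1 sample the Prx interval of 0.663 to 2.03 overlaps the Mbp interval of 1.53 to 3.41.

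Mag (ENSMUSG00000036634, chromosome 7, 30899176 to 30914873) encodes myelin-associated glycoprotein, the adhesion molecule that faces the axon, and was close to the limit of detection. KO libraries had 0.439, 0.414, 0.375, 0.475 and 0.444 CPM from 10 to 13 counts each, and WT libraries 0.362, 0.257, 0.449, 0.329 and 0.371 CPM from 6 to 9 counts. The groups overlapped through WT replicate 3. Mag passed the filter with 4 KO libraries and 1 WT library above its level. The fold of 1.22 had a 95% interval of 0.848 to 1.75 (adjusted p = 0.536 in edgeR), and of 0.592 to 2.50 with KO as 1 sample, so changes of either sign lie inside both.

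**Figure D2:**
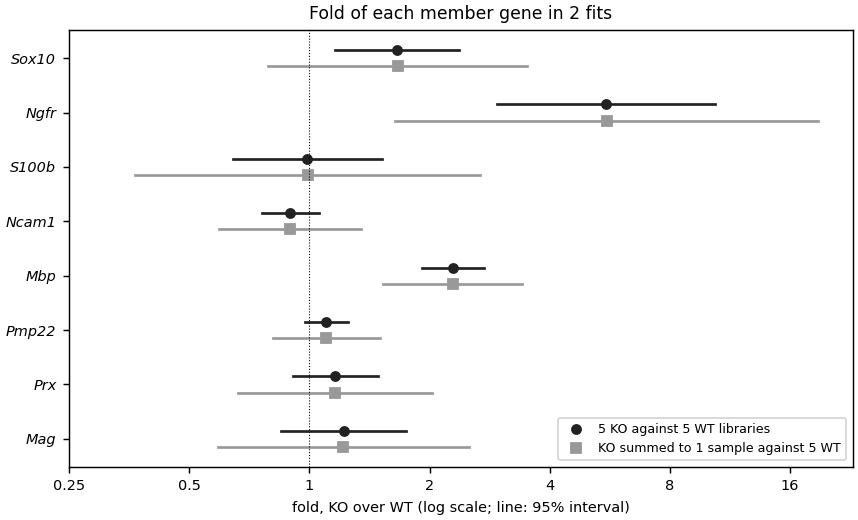
Fold of each gene, KO over WT (horizontal axis, log scale), with 95% intervals, in the fit of 5 KO against 5 WT libraries (black circles) and with KO summed to 1 sample (grey squares). The intervals of Mbp and Ngfr lie above 1 in both fits, that of Sox10 in the first, and those of the other 5 genes cross 1 in both.

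Levels of the 8 genes can be compared with each other per length, as CPM per kilobase of annotated exon. In WT the order was Pmp22 (75.3 ± 10.7), Ncam1 (40.2 ± 7.43), S100b (5.54 ± 2.68), Prx (2.86 ± 0.751), Mbp (1.05 ± 0.204), Sox10 (0.188 ± 0.0624), Ngfr (0.0911 ± 0.0765) and Mag (0.0869 ± 0.0172), all in CPM per kilobase (SD, n = 5). The neighbours S100b and Prx overlapped between libraries (2.42 to 9.27 and 1.72 to 3.76), and so did Sox10 and Ngfr, and Ngfr and Mag. The remaining neighbours did not overlap. In KO the order was the same except that Ngfr, at 0.511 ± 0.0935, stood above Sox10, at 0.316 ± 0.0323, and no neighbours overlapped. The myelin genes thus spanned nearly the whole range of levels, with Pmp22 at the top and Mag at the bottom. Exon length here counts every annotated exon once, which understates the level of a gene such as Mbp that has many alternative exons.

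The level of one gene against another within a library does not depend on library size. The ratio of Mbp to Prx was 1.01 to 1.16 in KO and 0.453 to 0.723 in WT, with no overlap. Mbp to Sox10 was 17.4 to 23.8 in KO and 12.3 to 22.9 in WT, and these ranges overlapped through WT replicate 5 alone. That library had 8 Sox10 counts, and WT replicates 1 to 4 had ratios of 16.8, 12.3, 17.3 and 12.4. Mbp against S100b gave 2.34 to 2.70 in KO and 0.778 to 2.17 in WT, again without overlap. Mbp against Ncam1 gave 0.0607 to 0.0693 in KO and 0.0190 to 0.0406 in WT, also without overlap. The ratios of Mbp to Prx, S100b and Ncam1 thus separated the groups, as Mbp alone did. Its ratio to Sox10 did so except for WT replicate 5, where the low Sox10 count leaves the ratio uncertain. These ratios were not tested.

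Among the WT libraries the 8 genes did not share 1 order. The highest WT library was replicate 4 for Mbp, Prx, Sox10 and S100b, replicate 3 for Ncam1 and Mag, replicate 2 for Pmp22 and replicate 1 for Ngfr. The ratio of the highest to the lowest WT library was smallest for Pmp22 (1.42) and was 3.83 for S100b and 15.6 for Ngfr. S100b followed the order 4, 5, 2, 1, 3 from high to low. The summed level of 10 adipocyte markers had the same order, at 2787, 2106, 999.7, 793 and 582 CPM, and so had that of 10 endothelial markers, at 768, 624, 593, 261 and 199 CPM. In KO these sums were 961 to 982 and 333 to 345 CPM, inside the WT range as S100b was. The shared order is that of the sums, and S100b against single adipocyte genes was not steady in WT. Its ratio to Adipoq was 0.143 to 0.421 in WT and 0.222 to 0.278 in KO. Its ratio to Ucp1 was 0.0325 to 0.411 in WT and 0.0795 to 0.0899 in KO. The part of either cell type in the S100b values was not tested, and in whole tissue fewer cells of a type and less RNA per cell cannot be told apart.

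**Figure D3:**
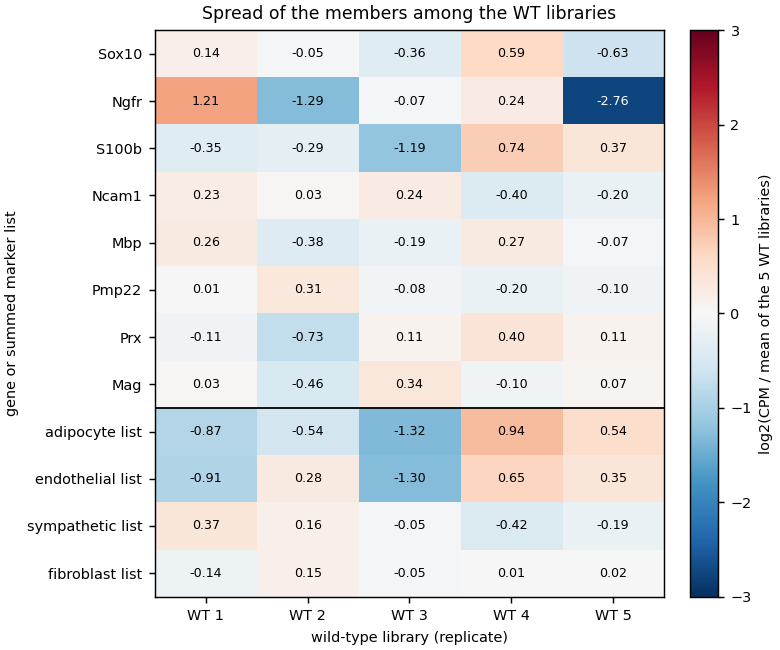
Level of each gene, and summed level of 4 marker lists below the line, in each WT library relative to the mean of the 5 WT libraries (log2, colour and printed value). S100b and the adipocyte and endothelial lists are highest in replicate 4 and lowest in replicate 3, and Ngfr spans -2.76 to 1.21. Uchl1 makes up most of the sympathetic list sum on average.

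Genes whose profile over the 10 libraries was nearest to a member were found by the root mean square difference of centred log2 CPM. For Mbp these were Wnt16, Bub1b and Tubb3, each at 0.187. Tubb3, a neuronal tubulin, had 3.95 to 4.79 CPM in KO and 1.60 to 2.88 CPM in WT. Sox10 was the nearest other member to Mbp, at 0.341 and rank 116. For Sox10 the nearest were Cd209b (0.194), Nid2 (0.205) and Gpm6b (0.206). For S100b they were Palmd (0.0748), Cd93 (0.121) and Ephx2 (0.127), and its nearest member, Prx, had rank 4260. Each profile includes the KO and WT difference, so these are descriptions over 10 libraries that share 2 groups.

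The Schwann cell, myelin and neurotrophin lists were chosen with earlier results of these data known. Their other genes were read in the same fit. Of 51 such genes, 50 were matched and 39 tested. In these, 6 rose and 0 fell at an adjusted p of 0.05 in edgeR, which is 15.4% higher against 6.84% of all tested genes. At an unadjusted p under 0.05, 14 were higher and 2 lower, which for all tested genes was 13.2% and 16.2%. Their median log2 difference was 0.29, with 28 of 39 positive. In the fit with KO as 1 sample, 0 were called, so none of the calls named in the next 3 paragraphs held there, and 4 were higher at an unadjusted p under 0.05. With the 8 genes included, 8 of 47 tested rose, and this count was 13 (12 higher, 1 lower) without WT replicate 4.

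In the myelin list, 3 of 16 tested genes rose and 0 fell, against 6.84% and 7.43% of all tested genes. Mbp and Nfasc were among those that rose, and the list median was 0.50. At an unadjusted p under 0.05, 7 of the 16 were higher and 0 lower, against the same 13.2% and 16.2%. Nfasc encodes neurofascin, made in glial and neuronal forms at the node of Ranvier. It had 52.4 to 54.3 CPM in KO and 33.2, 25.7, 49.8, 31.5 and 32.7 CPM in WT, with WT replicate 3 closest to KO (log2 difference 0.63, SE 0.14, adjusted p = 0.0138 in edgeR, and 0.0544 without WT replicates 4 and 5). The fold of Nfasc with KO as 1 sample was 1.54, with a 95% interval of 0.957 to 2.49.

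In the list of Schwann cell identity and signalling, 3 of 22 tested genes rose, namely Ngfr, Fabp7 and Lgi4, and 0 fell. This compares with 6.84% and 7.43% of all tested genes, and the list median was 0.22. At an unadjusted p under 0.05, 8 of the 22 were higher and 1 lower, against 13.2% and 16.2% of all tested genes. Fabp7, a fatty acid binding protein of Schwann cell precursors and other glia, had 0.996 ± 0.270 CPM in KO and 0.431 ± 0.0973 CPM in WT (SD, n = 5 each; adjusted p = 0.0128 in edgeR). Lgi4, a secreted Schwann cell protein required for myelination, had 2.76 ± 0.176 CPM in KO. In WT it had 1.13, 0.641, 0.998, 2.31 and 1.67 CPM, so WT replicate 4 came close to KO (log2 difference 1.02, SE 0.27, adjusted p = 0.0277 in edgeR). Its call was lost on leaving out any 1 KO library, at adjusted p of 0.0551 to 0.0664. Egr2, the myelination factor that works with SOX10 and named here after its values were seen, had 5.87 ± 0.375 CPM in KO and 5.66 ± 2.74 CPM in WT (adjusted p = 0.932 in edgeR). Art3, the most abundant gene of this list after Ncam1, had a log2 difference of 0.11 (adjusted p = 0.451 in edgeR).

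Among ligands and receptors of the neurotrophin list, 2 of 9 tested genes rose and 0 fell, Sort1 among them, with a list median of 0.04. The shares of all tested genes called higher and lower were 6.84% and 7.43%. Sort1 encodes sortilin, the partner of p75 in binding neurotrophin precursors, and had 149 ± 3.60 CPM in KO and 133 ± 3.07 CPM in WT (SD, n = 5 each; log2 difference 0.16, adjusted p = 0.0202 in edgeR). Its call was lost on leaving out KO replicate 1, 2 or 3, at adjusted p of 0.0574 to 0.0607, and 0.0808 with the replicate number as a block. Ntrk3, the most abundant gene of the list, had 295 ± 5.77 CPM in KO and 310 ± 43.8 CPM in WT (adjusted p = 0.631 in edgeR).

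**Figure D4:**
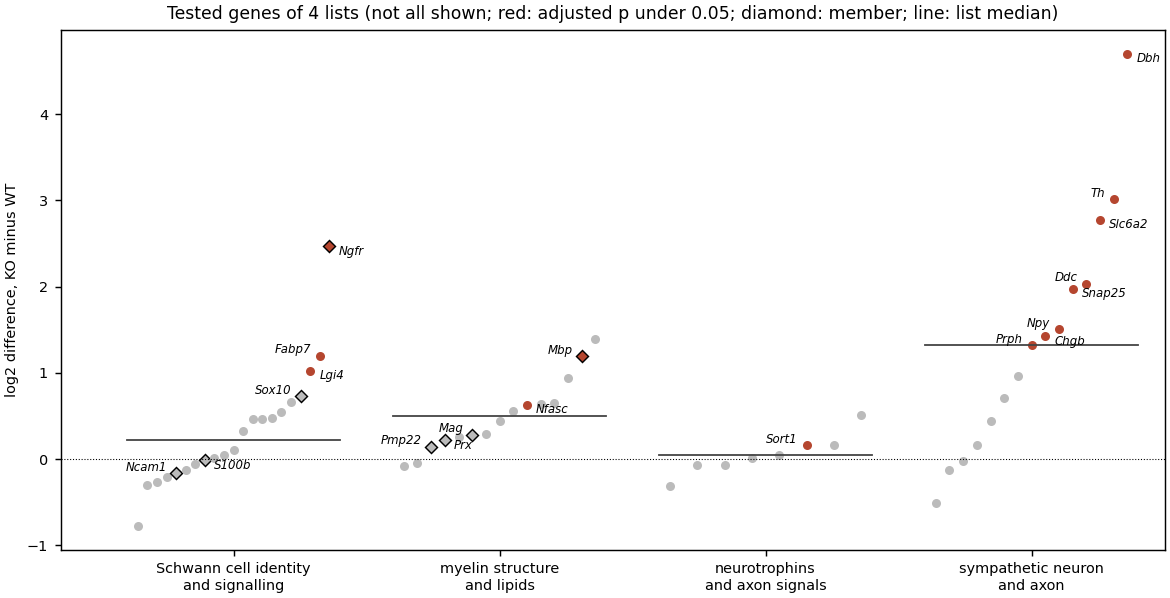
Log2 difference, KO minus WT (vertical axis), of tested genes in 3 Schwann cell lists and a sympathetic neuron list, leaving out genes not reported here. Red marks an adjusted p under 0.05, diamonds mark the 8 genes described here and lines mark the medians of all tested genes of each list, 0.22, 0.50, 0.04 and 1.32.

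Of all genes tested in edgeR, 6.84% were called higher and 7.43% lower. Among genes of the sympathetic neurons whose axons Schwann cells ensheath, several rose in KO, as Mbp and Ngfr did. Of 15 tested, 8 rose and 0 fell, with a median log2 difference of 1.32, and with KO as 1 sample 0 were called and 7 were higher at an unadjusted p under 0.05. Dbh, the enzyme that makes noradrenaline, had 3.39 ± 0.352 CPM in KO and 0.125 ± 0.1003 CPM in WT (SD, n = 5 each; log2 difference 4.70, adjusted p = 6.78e-06 in edgeR, and 0.0644 with KO as 1 sample, in a range of 0.0471 to 0.415). Dbh and Snap25 passed the low-count filter only through KO: 0 WT libraries exceeded its level for either, and 1 did for Th. Th, the first enzyme of that pathway, and Slc6a2, the noradrenaline transporter, differed by 3.01 and 2.77 on the log2 scale. Single WT libraries moved these sizes by over 1.5 times: Th was 3.67 without WT replicate 3, Slc6a2 was 3.36 without WT replicate 1 and Dbh was 5.33 without WT replicate 2. Ddc (2.03), Snap25 (1.98), Npy (1.51), Chgb (1.42) and Prph (1.32) were the others, and Chgb lost its call on leaving out any KO library (adjusted p of 0.0501 to 0.0749) or WT replicate 5 (0.0661). The 2 most abundant genes of the list did not pass: Uchl1 had 116 CPM in KO and 118 CPM in WT, and Hand2 had 4.86 and 6.90 CPM. The summed level of the list was 150.4 to 159.9 CPM in KO and 104 to 180 CPM in WT. Uchl1 made up most of this sum on average, so the sum does not describe the genes that rose. The part of neuronal RNA in the values of Ngfr, which these neurons also make, was not tested.

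Markers of other cells that carry some of the 8 genes were read alongside. Oligodendrocytes, the myelin-forming glia of the central nervous system, left almost no trace: their 6 matched markers summed to 0.112 to 0.338 CPM in KO and 0.0464 to 0.226 CPM in WT, with none tested, and Olig1 and Mog, the most abundant, reached at most 0.259 CPM in any library. Of all genes tested in edgeR, 6.84% were called higher and 7.43% lower. Lymphocyte markers also rose in KO, with 4 of 8 tested called higher and 0 lower. They were led by Ighm (157 CPM in KO and 9.35 CPM in WT) and Igkc (95.6 and 5.66 CPM). Of fibroblast markers 5 of 10 rose, with Dcn at 1528 CPM in KO and 1188 CPM in WT and Col1a1 at 293 and 371 CPM. All 5 red cell markers tested, of 6 listed, fell. Hbb-bs had 10.1 CPM in KO and 89.6 CPM in WT, and Hba-a1 had 7.71 and 77.3 CPM. Of these 3 lists, the fit with KO as 1 sample called 1 lymphocyte marker, Ighm, and no fibroblast or red cell marker, while 4, 3 and 0 were higher and 0, 0 and 4 lower at an unadjusted p under 0.05. The parts of lymphocytes and fibroblasts in the Mbp and Ngfr values were not tested.

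Of melanocyte markers, from another SOX10-dependent lineage, Mlana rose and Pmel fell among 3 tested, while Mitf had 31.0 CPM in KO and 35.3 CPM in WT. No adipocyte or endothelial marker passed in 10 tested each in edgeR, with 0 and 1 lower and none higher at an unadjusted p under 0.05. Fabp4 and Pnpla2 led the first list, at 470 and 186 CPM in KO and 741 and 261 CPM in WT, and Pecam1 and Vwf the second, at 158 and 49.9 CPM in KO and 269 and 56.0 CPM in WT. Of smooth muscle markers Mylk rose and Tagln fell in 10 tested, with Acta2 and Myh11 most abundant. Of chondrocyte markers Comp and Chad rose in 6 tested and Acan did not pass. None of 4 tested skeletal muscle markers passed, Ckm and Tnnt3 included, or reached an unadjusted p under 0.05. For comparison, 6.84% of all tested genes were called higher and 7.43% lower in edgeR. At an unadjusted p under 0.05 these shares were 13.2% and 16.2%. No marker named in this paragraph was called with KO as 1 sample.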

How the data were processed

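Libraries were made with the Illumina TruSeq RNA kit from 1 ug of total RNA, per the labels' protocols. The authors deposited 1 table of raw counts per gene for each of 10 aorta libraries. Bowtie 0.12.2 and 2 builds, mm9 and mm8, appear in the submitters' processing notes without roles. No source used here gives the counting tool, annotation or use of strand, and the gene IDs are of the later GRCm38 era. Groups and replicate numbers came from sample titles.

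Counts of all 35667 genes were filtered with filterByExpr (minimum count 10, minimum total 15), scaled by TMM and tested with edgeR 4.0.16 (robust quasi-likelihood F test) in R 4.3.3. Calls use Benjamini-Hochberg adjusted p under 0.05 over 15710 genes. SE were derived from the log2 difference and F, and intervals are 95%. CPM are TMM-scaled. The exact permutation tests are two-sided and use log2(CPM + 0.1). They and the main fit treat the KO libraries as separate samples. Positions and exon lengths are from GENCODE M21 on GRCm38 (35519 IDs matched). Alternatives were other scalings, no filter, DESeq2 1.42.0, limma 3.58.1 (voom with sample weights), a replicate block, KO summed into 1 sample, and libraries left out. The test was also run on simulated data, with KO libraries drawn separately or from a shared source, and the outcome is not given here. The members and lists were chosen with earlier results of these data known.

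Named genes are the 8 members, genes of the Schwann cell, myelin, neurotrophin and sympathetic lists past the threshold, the 2 most abundant genes of each list, Ovgp1, and the 3 genes nearest in profile to Mbp, Sox10 and S100b. Egr2, Adipoq, Ucp1, Mylk, Tagln, Chad and Mlana fall outside this rule and were chosen after their values were seen. Pmp2 and Opalin were not analysed here, and some genes that the rule names or the lists hold are not reported here, although counts and medians of the lists include them.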

Additional observations from a re-analysis of the deposited data

Results flagged for a closer look

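Of 44 groups of 5 libraries looked at (the 8 genes and the other genes called in the Schwann cell, myelin, neurotrophin and sympathetic lists, each in KO and WT), 3 held a library whose gap to its neighbour took up more than 0.71 of the group's range, Dixon's 95% critical value. Chance gives about 1 in 20. Ncam1 in KO replicate 3 was 305.1 CPM, with the next lowest KO library at 312 CPM. Dbh in WT replicate 2 was 0.299 CPM, with the next highest WT library at 0.0998 CPM, both far below the KO libraries. Slc6a2 in WT replicate 1 was 1.40 CPM, with the next highest at 0.470 CPM. WT replicate 1 was also the highest WT library for Ngfr.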

How the results depend on the processing

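Mbp and Ngfr kept their direction under every alternative run, and their call under each that kept KO libraries as replicates. Members called numbered 2, and 4 with voom (Mbp, Ngfr, Sox10 and Pmp22) and 4 without WT replicates 4 and 5, an alternative chosen after seeing the data (3 higher and 1 lower). They numbered 0 with KO as 1 sample, also without each WT replicate in turn, and 2 to 3 on leaving out 1 of the 10 libraries. Schwann cell, myelin and neurotrophin genes called numbered 8, and 14 with no filter, 24 with voom (19 higher, 5 lower), 17 without WT replicates 1 and 3 (13 higher, 4 lower), 17 without WT replicates 4 and 5 (14 higher, 3 lower), 6 to 13 on leaving out 1 library, and 0 with KO as 1 sample. Sympathetic genes called numbered 8, 7 to 9 on leaving out 1 library, and 0 with KO as 1 sample, or 0 to 1 when each WT replicate was also left out (Dbh, without WT replicate 2). All genes called numbered 2242 (1075 higher, 1167 lower), 6477 with voom, 1319 with the block, 1287 to 1393 without 1 KO library, 1764 to 2678 without 1 WT library, 4386 without WT replicates 1 and 3, 3139 without WT replicates 4 and 5, and 7 with KO as 1 sample. Upper quartile scaling gave 1319 higher and 741 lower, and no filter gave 1294 higher and 676 lower.

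The S100b difference turned positive with upper quartile scaling (0.027), no filter (0.030), DESeq2 (0.0011), the replicate block (0.10), without KO replicate 2 (0.0097) or 3 (0.0044), without WT replicate 4 (0.25), 5 (0.090) or both (0.54), and with KO as 1 sample without WT replicate 4 (0.25) or 5 (0.093). On leaving out 1 library it ran from -0.20 to 0.25. Ncam1 turned positive with voom (0.022) and without WT replicates 1 and 3 (0.031). The cause was not tested.

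Equal replicate numbers did not pair the libraries: correlations of deviations were -0.040 to 0.042, and 2 of 5 KO libraries correlated best with their own number. With the replicate block 2 members, 7 of the Schwann cell, myelin and neurotrophin genes and 8 sympathetic genes were called. Depth limits Mag, Sox10 and, in WT, Ngfr, with under 30 counts in a library.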
